A study of Mus musculus with 12 samples.

Results

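The genes followed were 8: the receptor tyrosine kinase genes Flt3, Kit and Csf1r, the ligand genes Flt3l and Csf1, and the cytokine receptor genes Csf2ra, Csf2rb and Csf2rb2. They were taken by name from 52355 genes to which the deposited transcripts were summed, and 8 of 8 passed the filter on low counts. RNA came from CD11c cells sampled from inguinal lymph nodes of mice. The 12 libraries form 3 groups of 4. Healthy nodes (Healthy_iLN) came from mice with no tumor and no CD40 agonist, tumor-draining nodes (TdLN) from mice with a subcutaneous KPC tumor and no agonist, and agonist nodes (TdLN_CD40) from mice with the tumor and a CD40 agonist. The sources used here do not state strain, age, agonist dose and timing, mock treatment, sorting gate or pooling of animals. Each group has 1 library for each of 4 title prefixes, which gave the replicate numbers 1 to 4, and the tests below were run without and with the prefix as a block.

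FLT3 ligand signals through the FLT3 receptor and drives the formation and upkeep of dendritic cells, including those in lymph nodes. Stem cell factor acts through KIT on progenitors and mast cells, and colony-stimulating factor 1 acts through CSF1R on monocytes and macrophages. Receptors for granulocyte-macrophage colony-stimulating factor pair a ligand-specific alpha chain, encoded by Csf2ra, with a common beta chain, encoded by Csf2rb, and signal through JAK2 and STAT5. Mice have a second beta chain gene, Csf2rb2, whose product serves interleukin 3 alone.

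The libraries held 32626784 to 56320661 estimated counts (median 45423646). The mitochondrial share of counts was 1.23% to 4.75%, and was highest in replicate 1 of each group. Itgax, which encodes CD11c, was measured at 641 to 1130 CPM (counts scaled to library size, with trimmed mean of M values factors) over the 12 libraries. Its means were 832, 968 and 731 CPM in healthy, tumor-draining and agonist nodes, and it was highest in the tumor-draining library of each prefix. Xcr1 and Clec9a, which mark type 1 conventional dendritic cells, and Siglech, which marks plasmacytoid cells, were present in every library, as were C1qa and C1qb of macrophages. No gene of the 15 marker lists was at 0 in all 12 libraries. The 3 comparisons share libraries, so they are given side by side and not set against each other. In bulk samples, fewer cells of a type and less RNA per cell cannot be told apart.

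Compared per length, in TPM (transcript abundance scaled by length and depth), Flt3 was the most abundant of the 8 genes in healthy nodes at 139 ± 22.5 TPM (SD, n = 4), and its 4 values lay above those of every other member. Csf1r followed at 84.5 TPM and Kit at 68.9 TPM, with ranges that overlapped. Csf2rb at 52.9 TPM, Csf2ra at 35.0 TPM and Csf2rb2 at 14.3 TPM came next, with no overlap between neighbours down to Csf2rb2. Flt3l at 9.72 TPM and Csf1 at 8.77 TPM were lowest, and the ranges of Csf2rb2, Flt3l and Csf1 overlapped from each to the next. In tumor-draining nodes the order was the same for the first 6, but Csf1r at 110 TPM reached into the range of Flt3 at 135 TPM. In agonist nodes Csf1r had the highest mean at 119 TPM, followed by Flt3 at 90.7 TPM, Csf2rb at 66.7 TPM and Kit at 57.6 TPM, and each of these overlapped with the next. Kit's place depends on a short transcript: Kit-202, a retained-intron transcript of 392 bases, held 49.7% of the gene's TPM but only 4.08% of its estimated counts. Coding transcripts alone gave Kit 21.7 ± 5.34, 26.6 ± 7.05 and 18.9 ± 6.22 TPM (SD, n = 4 each) in healthy, tumor-draining and agonist nodes, below Csf2ra in each group's mean. They gave Flt3l means of 5.39, 4.27 and 4.87 TPM, below those of Csf1 at 8.33, 8.43 and 16.7 TPM.

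**Figure D1:**
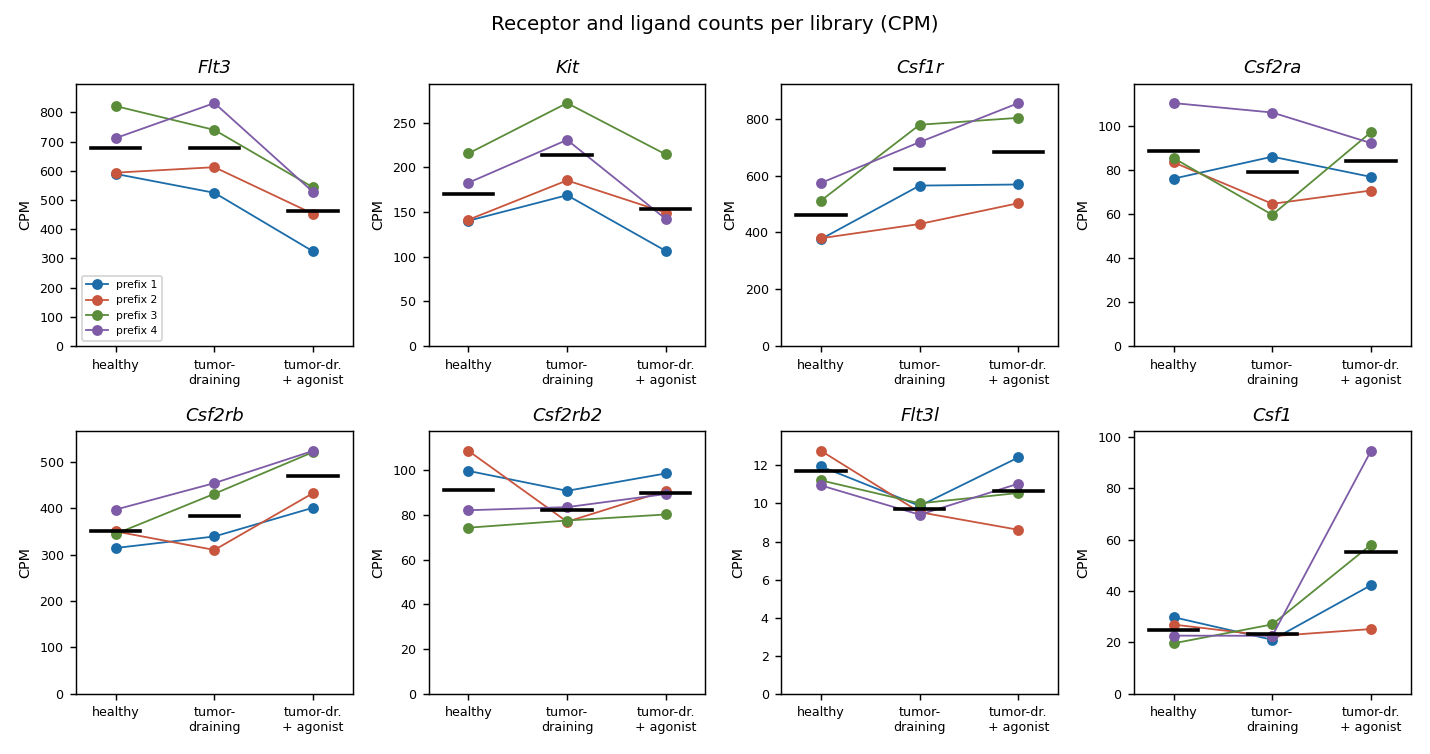
Counts scaled to library size (CPM, vertical axes, from 0) of the 8 genes in the 12 libraries by group, with lines joining libraries of the same title prefix and black bars at group means. Flt3 is lowest in the agonist library of all 4 prefixes, Csf1r is lowest in the healthy library of all 4, and Csf1 is spread from 25.2 to 94.6 CPM in the agonist group.

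The counts of members called are read against those over all 23729 genes tested. Between tumor-draining and healthy nodes 0 of 8 were called by edgeR without the block, where 0.198% of all genes were called, 0 of 8 had an unadjusted p under 0.05, and DESeq2 and limma voom also called 0. With the block 2 of 8 were called, Kit and Csf1r, against 6.3% of all genes. Between agonist and tumor-draining nodes 1 of 8 was called without the block, against 2.68% of all genes, and 3 of 8 with it (Flt3, Kit and Csf2rb), against 13.3%. Between agonist and healthy nodes 1 of 8 was called without the block, against 6.28%, and 3 of 8 with it (Flt3, Csf1r and Csf2rb), against 20.1%. The median log2 fold change of the 8 genes was -0.05, 0.13 and -0.05 in the 3 comparisons, beside -0.02, 0.02 and -0.03 for all genes tested.

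**Figure D2:**
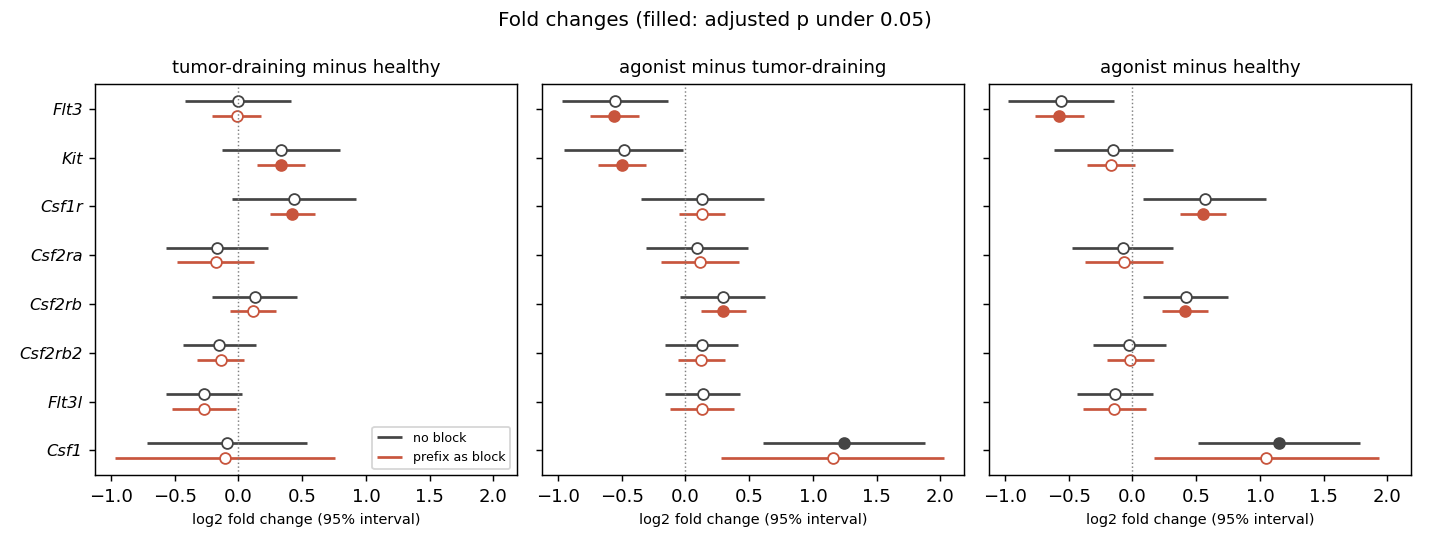
Log2 fold changes (horizontal axes) of the 8 genes with 95% intervals in 3 comparisons, from the edgeR fits without (grey) and with (red) the title prefix as a block, filled where the adjusted p was under 0.05. Intervals of Flt3, Kit and Csf1r are narrower with the block and that of Csf1 is wider.

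Csf1, the gene of a CSF1R ligand (chr3:107741048-107760469, minus strand), was called higher in agonist nodes. It stood at 29.8, 26.9, 19.6 and 22.6 CPM in healthy replicates 1 to 4, at 21.01, 22.4, 27.01 and 22.6 CPM in tumor-draining replicates, and at 42.3, 25.2, 58.0 and 94.6 CPM in agonist replicates. Agonist replicates 1, 3 and 4 lay above all other libraries, and agonist replicate 2 lay within the range of the other groups. Against tumor-draining nodes the log2 fold change was 1.24 (SE 0.30, 95% interval 0.61 to 1.88, edgeR quasi-likelihood adjusted p = 0.0413), higher in 4 of 4 prefix pairs. Against healthy nodes it was 1.15 (SE 0.30, edgeR adjusted p = 0.0329), higher in 3 of 4 pairs. With the prefix as a block both calls were lost, with log2 fold changes of 1.15 (SE 0.37, edgeR adjusted p = 0.0936) and 1.05 (SE 0.37, adjusted p = 0.0982). Without agonist replicate 4 the log2 fold changes were 0.83 and 0.74, at edgeR adjusted p = 0.118 and 0.105. In fits that left out a single library, the call against tumor-draining nodes was kept in 1 of 12, that without agonist replicate 2 (1.49, edgeR adjusted p = 0.00715), and the adjusted p reached 0.123 in the others. The call against healthy nodes was kept in 5 of 12, those without tumor-draining replicate 2, 3 or 4 or agonist replicate 1 or 2, and the adjusted p reached 0.127 in the others. Tumor-draining and healthy nodes differed by -0.09 (95% interval -0.72 to 0.54).

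Agonist replicate 4, highest in Csf1, was also highest in the list of stromal and endothelial markers, which summed to 356 TPM there against 59.96 to 84.1 TPM in the other agonist libraries and 62.4 to 137 TPM in healthy and tumor-draining ones. Most of that sum was Ccl21a, a chemokine of lymph node stroma, at up to 259 TPM, whereas the collagen genes Col1a1, Col1a2 and Col3a1 stayed at or below 2.38 TPM in agonist nodes. Pecam1, Cdh5 and Ccl19 of this list reached 60.5, 12.6 and 8.04 TPM in agonist libraries. In healthy and tumor-draining libraries they reached at most 48.0, 7.16 and 3.30 TPM. Cxcl13 reached 9.89 TPM in agonist and 10.2 TPM in healthy libraries. Of the 10 stromal genes, 0 were called in any comparison by edgeR with or without the block, DESeq2 or limma voom, with 5, 2 and 1 at an unadjusted edgeR p under 0.05 in the 3 comparisons. Among agonist libraries, replicate 4 also had the highest sum of macrophage markers (1003, 925, 1202 and 1361 TPM in replicates 1 to 4, the order of Csf1) and of migratory and mature dendritic cell markers (3269, 4399, 3425 and 5612 TPM). The part of any of these cells in the Csf1 level was not tested. Transcripts Csf1-201 and Csf1-202 held 40.4% and 35.4% of the gene's estimated counts over the 12 libraries.

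The 250 bases upstream of the Csf1 start, chr3:107760470-107760719 on the minus strand (RefSeq, GRCm38.p6), are shown because Csf1 was the only member called without the block.
Csf1 upstream: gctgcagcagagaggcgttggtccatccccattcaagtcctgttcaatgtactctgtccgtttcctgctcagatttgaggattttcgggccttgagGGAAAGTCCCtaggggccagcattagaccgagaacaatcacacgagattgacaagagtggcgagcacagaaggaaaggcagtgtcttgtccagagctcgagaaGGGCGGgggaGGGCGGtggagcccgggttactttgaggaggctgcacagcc
Capitals mark 1 match to the kappaB consensus motif, on the strand opposite to the gene at bases -154 to -145, and 2 matches to the GC box (GGGCGG). Of 27025 mouse promoters of the same length, 3.75% held the kappaB motif and 32.9% the GC box on either strand, counting overlapping matches. The upstream sequences of 6 of the 8 members were matched and searched for these and 4 further motifs. The STAT5-type motif TTCNNNGAA occurs in 7.18% of all promoters. Cores of the RUNX factors, TGTGGT, and of PU.1, GAGGAA, occur in 14.2% and 23.1%. The motif of the GATA factors, AGATAA, occurs in 10.3%. The 250 bases upstream of Flt3 held none of the 6. The PU.1 core matched in 3 of the 6 sequences, those of Csf2ra (at 2 positions), Csf2rb2 and Kit, and the GC box in 4, those of Flt3l, Csf1, Csf2ra and Kit. The RUNX and GATA motifs matched in 0 of 6. The palindromic STAT5-type motif matched at a single position, -15 to -7, upstream of Csf2rb2 and not in the other 5 sequences. A match is a description of the letters and shows no binding.

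Flt3l, the gene of FLT3 ligand, lies at chr7:45129788-45136432 (minus strand). It was measured at 11.95, 12.8, 11.2 and 10.9 CPM in healthy, 9.87, 9.54, 10.01 and 9.41 CPM in tumor-draining, and 12.4, 8.62, 10.6 and 11.04 CPM in agonist replicates. The 4 tumor-draining values lay below the 4 healthy ones, and the agonist values overlapped with both groups. The difference of tumor-draining from healthy nodes, -0.27 on the log2 scale (95% interval -0.57 to 0.03), did not pass the test (edgeR adjusted p = 0.681, and 0.165 with the block). Gm45713, a readthrough gene on the same strand, spans Flt3l, and 65.3% of the 31-base words of the main Flt3l transcript also occur there. Gm45713 was assigned 0 to 9 estimated counts per library, against 370 to 587 for Flt3l.

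Flt3, the receptor gene (chr5:147330741-147400489, minus strand), was lower in the agonist library of every prefix. Its values were 589, 594, 821 and 712 CPM in healthy, 525, 612, 740 and 832 CPM in tumor-draining, and 324, 452, 543 and 527 CPM in agonist replicates. All agonist values lay below all healthy ones, while the highest agonist value passed the lowest tumor-draining one. Against tumor-draining nodes the log2 fold change was -0.55 (SE 0.19, 95% interval -0.97 to -0.14), not called without the block (edgeR adjusted p = 0.187) and called with it at -0.56 (adjusted p = 0.00174), lower in 4 of 4 pairs. Against healthy nodes it was -0.56 (SE 0.19), at edgeR adjusted p = 0.122 without the block and 0.000872 with it, again lower in 4 of 4 pairs. Tumor-draining and healthy nodes differed by -0.0042 on the log2 scale, with a 95% interval of -0.42 to 0.41 and 2 pairs in each direction. Transcript Flt3-201 held 96.8% of the gene's TPM.

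Kit, which encodes the stem cell factor receptor (chr5:75574916-75656722, plus strand), was highest in the tumor-draining library of each prefix. It stood at 140, 141, 215 and 183 CPM in healthy, 169, 185, 272 and 231 CPM in tumor-draining, and 106, 149, 214 and 142 CPM in agonist replicates. The 3 groups overlapped, and replicate 3 was highest in each of them. Tumor-draining exceeded healthy nodes by 0.33 on the log2 scale (SE 0.22), with within-prefix differences of 0.27, 0.39, 0.34 and 0.34 for replicates 1 to 4. That difference was not called without the block (edgeR adjusted p = 0.750) and was called with it (adjusted p = 0.0431). Agonist nodes were below tumor-draining ones by -0.48 (SE 0.22), at edgeR adjusted p = 0.356 without the block and 0.00264 with it, in 4 of 4 pairs. Against healthy nodes the agonist difference was -0.15 (95% interval -0.62 to 0.32). Mast cells carry KIT, and the 9 mast cell and basophil markers summed to 2.37 to 11.1 TPM per library. Of these, Hdc reached 4.90 TPM and Mcpt4 3.75 TPM, and Fcer1a and Ms4a2 stayed below 0.31 TPM. Their part in the Kit level was not tested.

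Csf1r, the receptor of macrophage colony-stimulating factor (chr18:61100598-61132149, plus strand), was lowest in the healthy library of every prefix. It was measured at 377, 379, 512 and 574 CPM in healthy, 565, 430, 779 and 718 CPM in tumor-draining, and 569, 503, 803 and 855 CPM in agonist replicates. All 3 groups overlapped, and replicates 3 and 4 were above 1 and 2 in each of them. Tumor-draining exceeded healthy nodes by 0.44 on the log2 scale (SE 0.23), at edgeR adjusted p = 0.682 without the block and 0.0135 with it. Agonist exceeded healthy nodes by 0.57 (SE 0.23), at edgeR adjusted p = 0.189 without the block and 0.000625 with it. Both differences were positive in 4 of 4 pairs. Between agonist and tumor-draining nodes the difference was 0.13 (95% interval -0.35 to 0.61, and -0.05 to 0.31 with the block), with no call in either fit. Hmgxb3 overlaps Csf1r by 873 bases on the opposite strand. The library kit keeps strand, but the sources used here do not say whether the quantification used it.

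Marker lists of several cell types were summed in the same libraries. The 8 markers of type 1 conventional dendritic cells summed to 796 to 1423 TPM in healthy, 631 to 1227 TPM in tumor-draining and 283 to 693 TPM in agonist libraries. Of them, 2 of 8 were called lower in agonist than in tumor-draining nodes (7 with the block), where 0.83% of all genes were (6.58% with the block), and 6 of 8 lower than in healthy nodes, where 2.03% were. Clec9a, a receptor for dead cells on these dendritic cells, averaged 72.7, 56.2 and 30.2 TPM in the 3 groups. The 8 markers of migratory and mature dendritic cells summed to 1988 to 3703, 1787 to 2646 and 3269 to 5612 TPM, and 4 of 8 were called higher in agonist than in tumor-draining nodes, where 1.85% of all genes were. Markers of type 2 conventional dendritic cells summed to 629 to 870, 671 to 848 and 386 to 608 TPM. In tumor-draining against healthy nodes 1 of 8 was called higher and 0 lower, beside 0.181% and 0.0169% of all genes. With the block 4 were higher and 0 lower, beside 4.02% and 2.28%, and the list's median log2 fold change there was 0.45 without the block. In agonist against tumor-draining nodes 0 of 8 were called higher and 3 lower, beside 1.85% and 0.83% of all genes. Against healthy nodes 1 was higher and 3 lower, beside 4.25% and 2.03%, and the list's median log2 fold change was 0.23. Sirpa averaged 171, 258 and 247 TPM in the 3 groups, and Cd209a 176, 124 and 19.6 TPM. Markers of plasmacytoid cells summed to 169 to 571, 141 to 535 and 168 to 424 TPM, with 0 of 8 called by edgeR without the block. With it 4 were lower against tumor-draining and 3 against healthy nodes, beside 6.58% and 8.46%. The 12 macrophage markers summed to 448 to 648, 502 to 878 and 925 to 1361 TPM, with 5 of 12 called higher against tumor-draining and 9 of 12 against healthy nodes, beside 1.85% and 4.25% of all genes. Between tumor-draining and healthy nodes 0 of 12 were called by edgeR (6 at an unadjusted p under 0.05) or limma voom and 3 by DESeq2, and 1 was higher and 1 lower with the block. In agonist against healthy nodes 2 of the 12 macrophage markers were not called and 1 was called lower, beside 2.03% of all genes. The lower one was Adgre1, which encodes F4/80, at -0.67 (SE 0.17, edgeR adjusted p = 0.0295). Its call was lost without healthy replicate 1, 3 or 4 or agonist replicate 2, 3 or 4 (adjusted p up to 0.0942). Monocyte markers summed to 386 to 600, 570 to 693 and 415 to 726 TPM. Of these 8, 0 were called higher and 1 lower in agonist than in tumor-draining nodes, beside 1.85% and 0.83% of all genes. That was Ccr2, the receptor for a monocyte chemokine, at 90.4 TPM in tumor-draining and 32.7 TPM in agonist nodes (-1.46, SE 0.17, edgeR adjusted p = 0.000761). The other 7 were not called, and the list's median log2 fold change was 0.04. The 7 markers of haematopoietic progenitors, which carry KIT, summed to 66.1 to 119, 80.3 to 165 and 173 to 270 TPM, most of it from Ly6a, which other cells also express, and Cd34 averaged 6.96, 7.63 and 8.29 TPM. The part of any of these cells in the levels of the 8 genes was not tested.

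**Figure D3:**
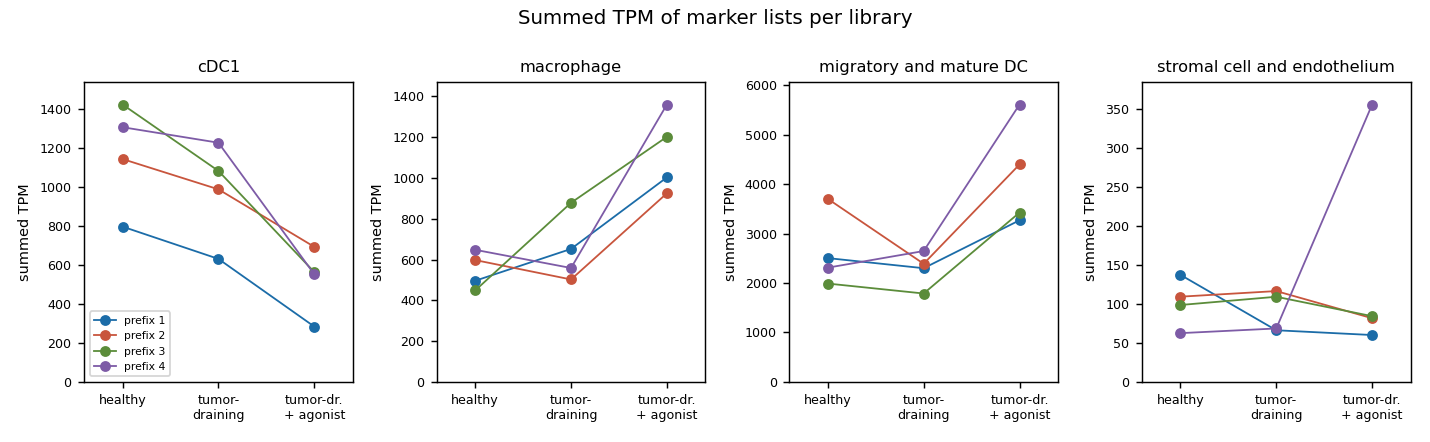
Summed TPM (vertical axes, from 0) of 4 marker lists in the 12 libraries by group, with lines joining libraries of the same title prefix. Markers of type 1 dendritic cells are lowest and macrophage markers highest in the agonist library of each prefix, and stromal markers stand at 356 TPM in agonist replicate 4.

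Csf2rb, the beta chain shared by the receptors for granulocyte-macrophage colony-stimulating factor, interleukin 3 and interleukin 5, was higher in the agonist library of every prefix. Its values were 314, 350, 345 and 397 CPM in healthy, 339, 310, 431 and 454 CPM in tumor-draining, and 401, 433, 521 and 524 CPM in agonist replicates. All agonist values lay above all healthy ones, and agonist and tumor-draining values overlapped. The log2 fold change was 0.29 (SE 0.15) against tumor-draining nodes, at edgeR adjusted p = 0.478 without the block and 0.0310 with it. Against healthy nodes it was 0.42 (SE 0.16), at edgeR adjusted p = 0.150 without the block and 0.00389 with it. Both were positive in 4 of 4 pairs.

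Csf2ra, the alpha chain that binds granulocyte-macrophage colony-stimulating factor (chr19:61223957-61228429, minus strand), was not called in any comparison. It lay at 76.2, 83.6, 85.5 and 111 CPM in healthy, 86.2, 64.7, 59.7 and 106 CPM in tumor-draining, and 77.0, 70.8, 97.3 and 92.4 CPM in agonist replicates. The groups overlapped, and pairs within a prefix pointed both ways in each comparison. The log2 differences were -0.17 (95% interval -0.57 to 0.23) for tumor-draining against healthy, 0.09 (-0.31 to 0.49) for agonist against tumor-draining, and -0.08 (-0.47 to 0.32) for agonist against healthy nodes. Whether Csf2ra and Csf2rb differed in response was not tested.

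Csf2rb2, the beta chain of the interleukin 3 receptor, lay at 99.7, 109, 74.3 and 82.1 CPM in healthy, 90.8, 76.9, 77.5 and 83.5 CPM in tumor-draining, and 98.5, 90.8, 80.2 and 89.3 CPM in agonist replicates. The groups overlapped and no comparison was called in either fit. Its log2 difference between agonist and healthy nodes was -0.02 (95% interval -0.31 to 0.26). Csf2rb (chr15:78325752-78353847, plus strand) and Csf2rb2 (chr15:78282507-78305721, minus strand) point away from each other, with starts 20031 bases apart (GENCODE M21, GRCm38). Their coding sequences, of 2688 and 2634 bases, were identical at 95.2% of 2628 aligned bases, with a longest identical run of 242 bases. Of all 31-base words, 28.9% of those in the Csf2rb transcript occurred in Csf2rb2 and 29.1% in the reverse direction. A pair of neighbouring 60-base windows in exon 4 is shown because reads from such stretches differ in whether they can be assigned to one gene.
Csf2rb identical window, chr15:78338834-78338893 plus strand: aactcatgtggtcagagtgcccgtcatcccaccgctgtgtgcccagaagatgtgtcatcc
Csf2rb2 identical window, chr15:78294438-78294497 minus strand: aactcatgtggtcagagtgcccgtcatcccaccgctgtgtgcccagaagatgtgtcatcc
Csf2rb differing window, chr15:78338893-78338952 plus strand: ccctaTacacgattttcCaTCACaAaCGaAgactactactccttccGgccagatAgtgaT
Csf2rb2 differing window, chr15:78294379-78294438 minus strand: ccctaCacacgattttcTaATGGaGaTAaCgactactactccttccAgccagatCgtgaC
Capitals mark the 13 bases that differ between the genes, in the window with the most differences, which was identical at 78.3% of its bases. The split of counts between both genes is therefore an estimate of the authors' quantification.

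The share of Csf2rb2 in the pair's counts was highest in the healthy and lowest in the agonist library of every prefix. The share was 24.1%, 23.7%, 17.7% and 17.1% in healthy, 21.1%, 19.9%, 15.2% and 15.5% in tumor-draining, and 19.7%, 17.3%, 13.3% and 14.6% in agonist replicates. Replicates 1 and 2 were above 3 and 4 in all groups, and the groups overlapped. Group means were 20.7% ± 3.74, 17.9% ± 2.999 and 16.2% ± 2.86 (SD, n = 4 each). Two-sided exact permutation tests gave p = 0.314 for tumor-draining against healthy, 0.4 for agonist against tumor-draining and 0.143 for agonist against healthy nodes, each 0.4 after Benjamini-Hochberg adjustment over the 3 comparisons. An exact sign-flip test within prefixes gave p = 0.125 for each, the smallest it can give with 4 pairs, all of which were lower. With both genes summed, the pair was 0.34 higher in agonist than in healthy nodes on the log2 scale (edgeR adjusted p = 0.209).

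**Figure D4:**
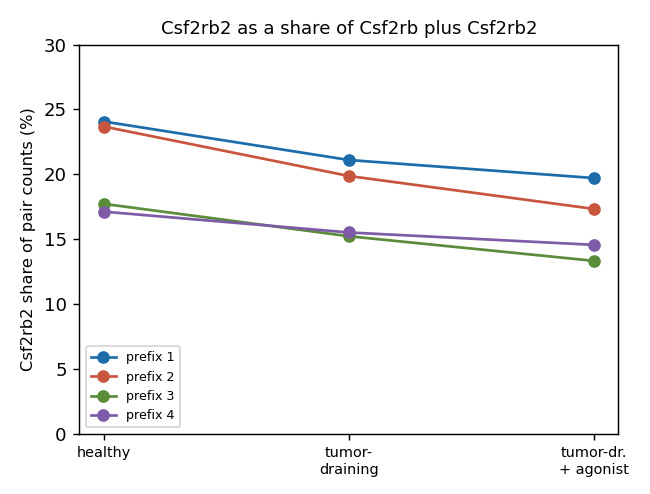
Share of Csf2rb2 in the summed estimated counts of Csf2rb and Csf2rb2 (vertical axis, %, from 0) in the 12 libraries by group, with lines joining libraries of the same title prefix. The line of each prefix descends from healthy to agonist nodes, between 24.1% and 13.3%, and the groups overlap.

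The title prefix accounted for much of the spread of the receptors. It took 59.2% of the variance of log2 CPM over the 12 libraries for Csf1r, 60.7% for Kit, 41.3% for Flt3 and 41.0% for Csf2rb, and the group took 37.0%, 32.8%, 52.6% and 48.8%. For Csf1 the prefix took 9.18% and the group 57.1%, which left 33.8% to neither. The share left to neither was 42.3% for Flt3l, 39.2% for Csf2ra and 32.4% for Csf2rb2, and its median over the genes tested was 19.9%. The median gene tested had 50.3% with the prefix and 19.6% with the group. The labels do not explain the prefix.

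**Figure D5:**
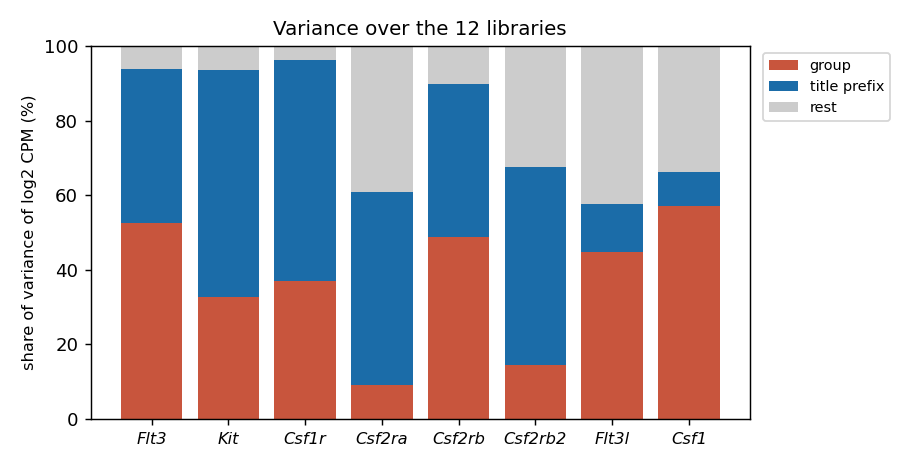
Share of the variance of log2 CPM over the 12 libraries (vertical axis, %, from 0) taken by the group, the title prefix and the rest for each of the 8 genes. Group and prefix together take most of the variance of Flt3, Kit, Csf1r and Csf2rb, and the rest is 33.8% for Csf1.

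Other genes of these families were mostly low or not called. Of 13 further receptors and ligands, 10 could be tested, since Il3 was at 0 and Csf3 and Il5 reached at most 0.121 and 0.0511 TPM. Csf3r, which encodes the granulocyte colony-stimulating factor receptor, was called higher in tumor-draining than in healthy nodes (1.18, SE 0.20, edgeR adjusted p = 0.0426), from 14.3 ± 2.003 to 32.4 ± 10.5 CPM (SD, n = 4 each). The call held in 3 of 12 fits with a single library left out (without tumor-draining replicate 4 or agonist replicate 1 or 3) and was lost without healthy replicate 1, 2, 3 or 4, tumor-draining replicate 1, 2 or 3, or agonist replicate 2 or 4, at log2 fold changes of 0.93 to 1.28 over the 12 fits and adjusted p up to 0.199. DESeq2 also called it and limma voom did not (adjusted p = 0.101). It was the only call of the list there, where 0.181% of all genes were called higher and 0.0169% lower. Neutrophil markers, whose cells carry this receptor, summed to 4.72 to 10.7 TPM in healthy, 13.5 to 118 TPM in tumor-draining and 15.5 to 128 TPM in agonist libraries. Of these 8 markers, 5 could be tested. In tumor-draining against healthy nodes 0 were called by edgeR without the block or by limma voom, and 3 by DESeq2. With the block 3 were higher and 0 lower, beside 4.02% and 2.28% of all genes. In agonist against healthy nodes 2 were higher and 0 lower without the block, beside 4.25% and 2.03%. The part of neutrophils in the Csf3r level was not tested. Csf2, the gene of granulocyte-macrophage colony-stimulating factor, stood at 0.108 ± 0.102, 0.102 ± 0.0465 and 0.692 ± 0.267 CPM in healthy, tumor-draining and agonist nodes (SD, n = 4 each). It was called higher in agonist than in healthy nodes (2.68, SE 0.71, edgeR adjusted p = 0.0356), as was Csf3r, so that 2 of 10 were higher and 0 lower, beside 4.25% of all genes higher and 2.03% lower. Csf2 passed the filter on low counts only through the agonist libraries, where it is high. Its calls, and the counts of this list that include it, are therefore given as descriptions only. The Csf2 call was lost without healthy replicate 2, 3 or 4, tumor-draining replicate 2 or agonist replicate 1, 2 or 3 (adjusted p up to 0.117), and that of Csf3r was kept in all 12 such fits. Against tumor-draining nodes Csf2 passed only with the block (edgeR adjusted p = 0.0555 without and 0.0218 with it), and the list had 0 of 10 calls without the block (also 0 by DESeq2 and limma voom, with 2 at an unadjusted p under 0.05) and 2 of 10 with it.

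Calls among targets of STAT5 were in the higher direction without the block. Of 12 targets and feedback genes, Socs3, an inhibitor of cytokine signalling, was the only one called in tumor-draining against healthy nodes (1.74, SE 0.31, edgeR adjusted p = 0.0448), where 0.181% of all genes were higher. That call held in 2 of 12 fits with a single library left out, without tumor-draining replicate 4 or agonist replicate 3, and was lost without each of the other 10 libraries, at log2 fold changes of 1.41 to 1.93 over the 12 fits and adjusted p up to 0.239. DESeq2 called 2 genes of the list, Socs3 among them, and limma voom 0 (adjusted p = 0.101 for Socs3). In agonist against tumor-draining nodes 2 of 12 were higher and 0 lower, beside 1.85% of all genes higher and 0.83% lower. These were Bcl2l1, which encodes the survival protein BCL-XL (0.85, SE 0.15, edgeR adjusted p = 0.00739), and Socs1, another such inhibitor (1.16, SE 0.25, edgeR adjusted p = 0.0227). The Socs1 call was lost without tumor-draining replicate 1, 2 or 3 or agonist replicate 3 or 4 (adjusted p up to 0.0853). In agonist against healthy nodes 5 of 12 were higher and 0 lower, beside 4.25% and 2.03% of all genes, among them Socs3 at 1.96, Socs1 at 1.39, the cytokine gene Osm at 1.25 and Bcl2l1 at 0.95. With the block the counts were 4, 5 and 8 higher and 0, 1 and 1 lower in the 3 comparisons, beside 4.02%, 6.74% and 11.7% of all genes higher and 2.28%, 6.58% and 8.46% lower. Other pathways also use these genes, and the list was not tested as a set. Its median log2 fold change was 0.07, 0.31 and 0.68.

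Genes of the signalling chain were mostly not called. Of 19 genes of JAK and STAT5 signalling, 0 were called in tumor-draining against healthy nodes without the block (2 at an unadjusted edgeR p under 0.05, 0 by DESeq2 and limma voom) and 7 were higher with it, beside 4.02% of all genes higher and 2.28% lower with the block. In agonist against tumor-draining nodes 0 were called without the block (1 at an unadjusted edgeR p under 0.05, 0 by DESeq2 and limma voom), and 1 was higher and 4 lower with it, beside 6.74% and 6.58% of all genes. Pik3r1, a regulatory subunit of PI3 kinase, came first (0.45, edgeR adjusted p = 0.143 without and 0.00286 with the block). In agonist against healthy nodes Pik3r1 was the only call without the block (0.58, SE 0.15, edgeR adjusted p = 0.0269, and up to 0.113 without healthy replicate 1, 2, 3 or 4 or agonist replicate 2, 3 or 4, where the call was lost), and 6 were higher and 1 lower with it, beside 11.7% and 8.46% of all genes. Of 12 genes of receptor turnover and negative regulation, 0 were called by edgeR in the 3 comparisons without the block, with 1, 2 and 2 at an unadjusted p under 0.05. DESeq2 called 0, 1 and 1 and limma voom 0 in each. With the block, 1 higher and 1 lower, 2 and 2, and 3 and 1 were called, beside 4.02% and 2.28%, 6.74% and 6.58%, and 11.7% and 8.46% of all genes. The smallest p values were those of Cblb, a ubiquitin ligase of receptors (-0.52 in tumor-draining against healthy, edgeR adjusted p = 0.550), Spred1, an inhibitor of RAS signalling (0.53 in agonist against tumor-draining, adjusted p = 0.0651), and Dusp6, an ERK phosphatase (0.70 in agonist against healthy, adjusted p = 0.0546).

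Transcription factors that act with or below these receptors went both ways. Of 21, 0 were called in tumor-draining against healthy nodes without the block (4 at an unadjusted edgeR p under 0.05, 0 by DESeq2 and limma voom) and 2 higher with it, beside 4.02% of all genes. Runx3 came first there (0.41, edgeR adjusted p = 0.517 without and 0.0184 with the block). In agonist against tumor-draining nodes 0 were higher and 2 lower, beside 1.85% and 0.83% of all genes: Runx1 fell by 0.66 (SE 0.12, edgeR adjusted p = 0.00957) and Klf4, a factor of monocytes and type 2 dendritic cells, fell by 1.12 (SE 0.25, adjusted p = 0.0264). The Klf4 call was lost without tumor-draining replicate 3 or 4 or agonist replicate 1, 2 or 3 (adjusted p up to 0.0794). DESeq2 called 4 and limma voom 3. With the block 5 were higher and 7 lower, beside 6.74% and 6.58%. In agonist against healthy nodes 5 were higher and 3 lower, beside 4.25% and 2.03% of all genes, and 8 and 6 with the block, beside 11.7% and 8.46%. The first 4 by p were Runx1 at -0.72, Cebpb, a factor of emergency granulocyte formation, at 1.98, Klf4 at -1.37, and Myb, a factor of progenitors, at -0.82.

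Patterns over the 12 libraries were compared between genes. Pearson correlations of log2 CPM were 0.80 between Flt3 and Kit, 0.87 between Csf1r and Csf2rb, and -0.80 between Csf2rb2 and Kit. These points share libraries, prefixes and scaling, and the values are descriptions without a test. In 10745 protein-coding genes at or above an average log2 CPM of 2, the 3 most like Flt3 were Il16, Camk1d and Cdc42se2 (r = 0.98 each). Those most like Kit were Bnip2 (0.98), Mapk14 (0.97) and Hsd17b4 (0.97), and those most like Csf1r were Ctsa (0.98), Zdhhc7 (0.97) and Arsa (0.97). For Csf1 they were Trim47 (0.95), Hyal2 (0.93) and Tnfaip2 (0.92). For Csf2rb they were Nt5dc2, Znfx1 and Pik3r5 (0.97 each), and for Csf2rb2 Tnfrsf10b (0.92), Cblb (0.90) and Sirt5 (0.89). Csf2ra was nearest to Trim11, Gm20721 and Dus3l (0.89, 0.89 and 0.88), and Flt3l to Dcun1d4, Nr3c2 and Mapk1ip1 (0.85, 0.80 and 0.77).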

How the data were processed

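Per the labels' protocols, libraries were prepared with a NEBNext Ultra II Directional kit after extraction with a Qiagen RNeasy Plus Micro kit. The authors estimated counts per transcript with Salmon on mm10, per the submitters' processing notes, and deposited estimated counts and TPM. The deposited values carry the name sailfish instead, and the sources used here do not settle which program gave them. The sources used here name no version, annotation or filter. By its model, Salmon divides reads that fit several transcripts. Here 131974 of 132374 transcripts were summed to genes by GENCODE M21 (GRCm38) and sums were rounded. The other 400 held 0.116% to 0.147% of a library's counts.

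Genes were tested with edgeR 4.0.16 (R 4.3.3, robust quasi-likelihood F test, TMM scaling, filterByExpr with minimum count 10), on all 12 libraries with the group as the only term and 9 residual degrees of freedom. P-values were adjusted by Benjamini-Hochberg over 23729 genes, and a gene was called at an adjusted p under 0.05. Deviations from group means correlated at 0.204 to 0.473 in the 12 same-prefix pairs of libraries and at -0.45 to 0.333 (median -0.235) in the 36 others. Such deviations sum to 0 within each group, so the negative median of the others is no separate sign of a pairing. From the same-prefix values the prefix was treated as a pairing. A fit with it as a block (6 residual degrees of freedom) was set beside the first. No 2 libraries of a group agreed within sampling noise (chi-square of at least 24.9 per degree of freedom in 18 pairs). Nothing in the labels says that each library is a separate animal, so the p-values reflect only spread among these samples, some of which may be technical. In data simulated from these libraries, 70% of genes changed 2-fold and 97% of those changed 4-fold were recovered in agonist against tumor-draining nodes, among 23168 genes, with 7 further genes called. None was simulated as changed in tumor-draining against healthy nodes, where 0 were called. Changed genes were drawn only from those with a mean above 4 CPM, and no prefix effect was simulated. The rates therefore do not cover lower genes or the pairing by prefix. Variance shares are sums of squares of log2 CPM (prior count 2) for group and prefix.

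Alternatives used DESeq2 1.42.0 and limma 3.58.1, with other scaling, filters, pseudocounts, samples and transcripts. All members are named. Of each pathway list, up to 4 called genes per comparison are named in order of p or, where none was called, the gene with the smallest p; 1 gene that this rule names is not reported here. The members and lists were chosen with earlier results of these data known.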

Additional observations from a re-analysis of the deposited data

How the results depend on the processing

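With the replicate block, 2, 3 and 3 members were called in tumor-draining against healthy, agonist against tumor-draining and agonist against healthy nodes (in place of 0, 1 and 1), and 1495, 3161 and 4781 genes (in place of 47, 635 and 1490). The block added 8 calls of members and ended both calls of Csf1, and it changed no other call of a member. The Csf1 call against tumor-draining nodes was lost, leaving 0 members, with DESeq2 size factors in edgeR (adjusted p = 0.0515), coding transcripts only (0.05005, a setting chosen after seeing the data), the compared groups only (0.0917), limma voom (0.0826), no count filter (0.0677) and limma on log2(TPM + 1) (0.284, and 0.490 without a filter) or log2(TPM + 0.1) (0.278). Against healthy nodes it was lost, leaving 0 members, with the compared groups only (0.0857), limma voom (0.0679), no count filter (0.0560) and the same TPM settings (0.198, 0.321 and 0.194). DESeq2 kept both. The cause was not tested. With a single library left out, 0 to 0, 0 to 1 and 0 to 1 members were called, and 0 to 101, 323 to 547 and 829 to 1535 genes. With a whole prefix left out, also chosen after seeing the data, the members were 0 to 0, 0 to 0 and 0 to 1, and the genes 0 to 37, 125 to 352 and 475 to 1001.

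Genes called between tumor-draining and healthy nodes were 364 with DESeq2, 25 with the compared groups only, 75 with no count filter, 1 with limma voom, 1 on log2(TPM + 1) or log2(TPM + 0.1) and 2 on log2(TPM + 1) without a filter. Between agonist and tumor-draining nodes they were 1090 with DESeq2, and 270, 253 and 134 on log2(TPM + 1), log2(TPM + 0.1) and log2(TPM + 1) without a filter. Between agonist and healthy nodes these TPM settings gave 755, 748 and 570.

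Of 627 recomputed fold changes of members, 553 kept direction and side of the threshold, 41 lost a call, 8 gained one and 25 changed sign. Sign changes were of values near 0. Flt3 between tumor-draining and healthy nodes was 0.028 with DESeq2, 0.021 with DESeq2 size factors and 0.0065 with coding transcripts, and -0.12 to 0.092 with a library and -0.097 to 0.043 with a prefix left out. Csf1 there was 0.0025 on log2(TPM + 0.1), and -0.19 to 0.0020 and -0.27 to 0.042. Csf2ra between agonist and tumor-draining nodes was -0.0056 on log2(TPM + 0.1) and -0.0052 on log2(TPM + 1) with or without a filter, and -0.023 to 0.25 and -0.14 to 0.22. Against healthy nodes it was -0.16 to 0.047 and -0.23 to 0.0080, and Csf2rb2 was -0.12 to 0.071 and -0.12 to 0.012. Csf1r between agonist and tumor-draining nodes was -0.011 to 0.26 with a library left out. The Csf2rb2 share of the pair kept its direction when taken from TPM and with each library left out. The biological coefficient of variation was 33.9% (20.7% with the block), which limits what could be called.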
